A study of Homo sapiens with 12 samples.

Results

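Homologous recombination and DNA damage response genes were followed across the arms of an inhibitor study in C4.2B cells, an established human castration-resistant prostate cancer (CRPC) line. The members were fixed as a list of 40 gene symbols with these functions, chosen with earlier results of these data known. All 40 were found among the 23228 genes of the count files. They were sorted by role into 8 groups: BRCA1 and BRCA2 complexes, break sensing and end resection, strand exchange, the Fanconi anaemia core complex, its ID2 complex, helicases and junction nucleases, checkpoint kinases with their partners, and the pair MSH6 and POLQ.

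RNA-seq was performed on 12 libraries in 4 arms of 3 replicates (A, B and C). DMSO was the vehicle arm, GDC was given 0.5 µM GDC-0941, which inhibits all class I PI3K isoforms, GSK received the EZH2 inhibitor GSK126 at 5 µM, and COMBO received both. Every arm was plated at 250000 cells and treated for 24 h in 10% charcoal-stripped FBS. Cells of the GSK and COMBO arms had already been kept in GSK126 for 6 days, so exposure to EZH2 inhibition was longer than exposure to PI3K inhibition. All arms came from the same line, seeded in triplicate, and the p-values therefore measure the spread between plates of 1 line.

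Homologous recombination repairs a broken chromosome by copying the intact sister chromatid, and is therefore used mainly in the S and G2 phases of the cell cycle. The MRN complex (MRE11, RAD50 and NBN) finds the broken end, nucleases resect it to a single strand, BRCA1 with BARD1 and PALB2 brings in BRCA2, and strand invasion of the sister chromatid follows. The Fanconi anaemia core complex is a ubiquitin ligase that marks FANCD2 and FANCI at crosslinked DNA, and ATM and ATR are the apical kinases that signal damage to CHEK2 and CHEK1. Many of these genes are known to be transcribed in a cell cycle dependent manner, and inherited or acquired loss of BRCA2 and ATM is well known in advanced prostate cancer.

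The libraries held between 8785218 and 44437751 reads assigned to genes, and no replicates of an arm were alike within counting noise, so that each library was counted as 1 replicate. All 9 markers of prostate luminal epithelium, among them KLK3, were detected in every library. They summed to 3328 to 3549 CPM in DMSO and 5595 to 6033 CPM in COMBO. Not all rose: HOXB13 averaged 484 CPM in DMSO and 304 in COMBO, and KRT18 322 and 320. CPM is the normalised read count, scaled to library size with TMM. Of the markers of other cell types, CD3E was at 0 in all 12 libraries, PECAM1 and COL1A2 in 11, and CDH5 in 9. PTPRC, CD14 and DCN were at 0 in 7 and LUM in 6. The other markers were detected in every library: COL1A1, PDGFRB (1.44 to 4.15 CPM), VWF (2.74 to 6.89) and CD68 (4.84 to 9.56). The 5 fibroblast markers summed to 11.5 to 13.4 CPM in DMSO against 14.2 to 17.9 under GDC, 26.6 to 38.8 in GSK and 29.8 to 48.2 in COMBO, most of it COL1A1 (means of 10.5 and 35.8 CPM in DMSO and COMBO). The 4 leukocyte markers summed to 4.84 to 5.70 CPM in DMSO and 7.57 to 9.58 in COMBO, most of it CD68. The 3 endothelial markers summed to 2.74 to 3.25 and 4.82 to 5.55, most of it VWF. Reads outside genes, as a share of uniquely mapped reads, averaged 15.5% in DMSO against 17% under GDC, 20.6% under GSK and 23.9% under COMBO. The part of these shifts in the results was not tested.

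To show the sequence at the start of the genes that moved furthest, the 250 bases before the RefSeq start were taken from the RefSeq promoter table (GRCh38.p14), which matched 35 of the 40 members. This start need not be that of the GENCODE 44 gene, and 11 of the 35 windows lay wholly inside the GENCODE gene. The windows of RAD54L and BLM, which fell steeply in COMBO, and of ATM, which rose most, are given 5′ to 3′ in the direction of the gene. EXO1 fell furthest, but 234 of its 250 bases are annotated as a UTR of a GENCODE 44 transcript, so its letters are not shown. The RAD54L window begins 977 bases inside the GENCODE gene, the last 23 bases of the ATM window lie inside its gene, and the BLM window ends directly before its gene. Capitals mark matches, on either strand, to 4 motifs known from cell cycle promoters: the CHR element TTTGAA, its variant TTCGAA, E2F-type sites (TTTCGCGC, TTTGGCGC, TTTCCCGC or TTCCCGCC, of which the last 2 can overlap) and the CCAAT box CCAAT.
RAD54L, chr1:46247438-46247687, + strand: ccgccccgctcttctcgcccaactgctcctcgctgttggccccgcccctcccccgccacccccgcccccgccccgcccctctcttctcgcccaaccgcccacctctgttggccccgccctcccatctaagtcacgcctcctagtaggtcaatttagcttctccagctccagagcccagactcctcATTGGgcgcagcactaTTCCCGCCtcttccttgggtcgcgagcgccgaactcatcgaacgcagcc
BLM, chr15:90717096-90717345, + strand: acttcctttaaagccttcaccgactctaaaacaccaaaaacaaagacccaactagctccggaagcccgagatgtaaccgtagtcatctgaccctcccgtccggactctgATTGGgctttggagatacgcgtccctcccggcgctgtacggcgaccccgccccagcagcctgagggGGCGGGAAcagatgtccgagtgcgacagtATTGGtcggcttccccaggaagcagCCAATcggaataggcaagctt
ATM, chr11:108222817-108223066, + strand: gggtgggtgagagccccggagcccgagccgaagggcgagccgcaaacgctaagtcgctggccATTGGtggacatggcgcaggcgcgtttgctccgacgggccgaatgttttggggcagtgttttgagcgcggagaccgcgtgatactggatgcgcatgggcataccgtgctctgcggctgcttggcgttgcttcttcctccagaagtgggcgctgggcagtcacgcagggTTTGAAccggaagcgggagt
RAD54L held 1 E2F-type match and 1 CCAAT box, BLM held 1 and 3, and ATM held 1 CCAAT box and 1 CHR element, the latter inside the GENCODE gene, while the EXO1 window held none of these letters. Over the 35 windows, E2F-type letters stood in 5 (14.3%) against 4.31% of all 35116 promoters in the table, the CCAAT box in 16 (45.7%) against 32.0%, the CHR element in 4 (11.4%) against 13.3%, and the variant TTCGAA in 0 against 1.19%. Of these windows 21 held more than 30 bases annotated as a UTR, and 3 (FANCA, CHEK2 and TOPBP1) were UTR throughout. In the 14 others, E2F-type letters stood in 3, the CCAAT box in 6 and the CHR element in 3. The share of all promoters was not restricted in this way, nor to the genes tested. It covers every entry of the table, whereas each member had 1 window. Over the 35 windows the median COMBO log2 fold change was -2.66 for the 5 members with E2F-type letters and -1.71 for 30 without. It was -1.93 for 16 with the CCAAT box and -1.65 for 19 without. For the CHR element it was -2.06 for 4 with and -1.73 for 31 without. Among the 5 members with E2F-type letters, COMBO left between 6.60% (RAD54L) and 68.7% (FANCL) of the DMSO level. The CHR element stood both in ATM, which rose, and in POLQ, which fell. These matches describe letters in the windows and were not tested.

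Most members were lower in every inhibitor arm, and the decline was deepest in COMBO. Each arm was compared with DMSO by edgeR's quasi-likelihood test, and a gene was called at a Benjamini-Hochberg adjusted p under 0.05 over the 14189 genes tested, which included all 40 members. In GDC 26 members were lower, where 20.0% of all genes were called lower, and 2 were higher, ATM and WRN, where 20.0% of all genes were called higher. In GSK 35 members were lower, against 35.7% of all genes, and ATM and BARD1 were higher, against 40.0%. In COMBO 36 members were lower, against 39.2% of all genes, and ATM and FANCE were higher, against 43.3%. The 3 comparisons share the same DMSO libraries. Under all 19 alternative settings the calls of 30 members in GDC, 34 under GSK and 33 under COMBO were unchanged, and changes of a call are given beside the genes described.

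The size of the change separated the arms more than the count of calls. The members' median log2 fold change was -0.25 in GDC, -1.03 in GSK and -1.76 in COMBO, where the median of all genes tested was 0.016, 0.058 and 0.054. No member fell by 1 or more on the log2 scale in GDC, where only 21 of the 14189 genes tested were called with such a fall. In GSK 20 members did, against 5.86% of all genes, and in COMBO 26 did, against 11.2%. In 23 members the libraries ran in the order DMSO, GDC, GSK, COMBO with no overlap between arms, an order that 10.9% of all genes showed. Because these are bulk samples, fewer cells in the phase that expresses a gene and less RNA per cell cannot be told apart.

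**Figure D1:**
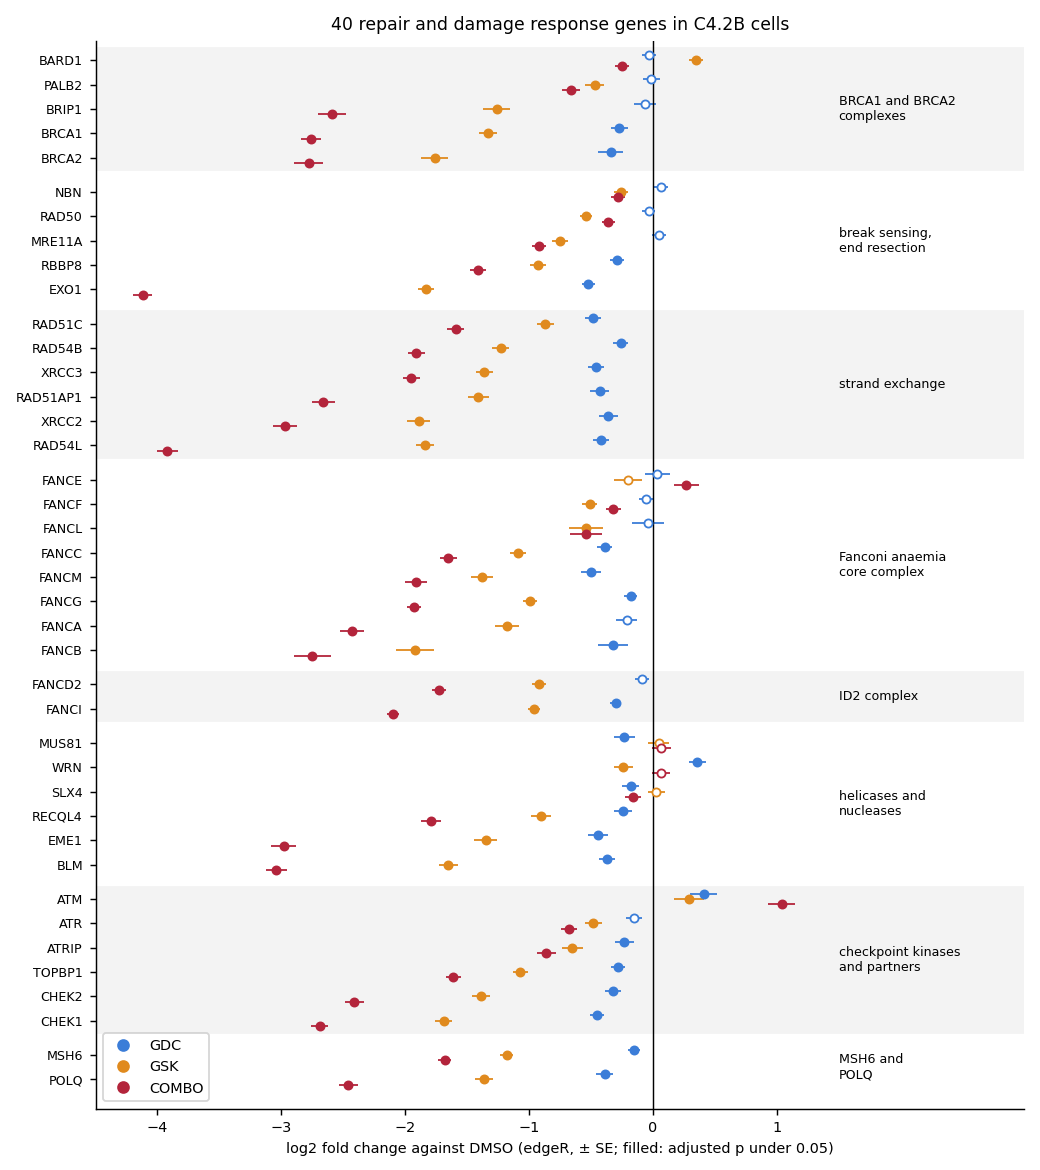
Log2 fold change of the 40 members against DMSO in GDC (blue), GSK (orange) and COMBO (red), with standard errors, grouped by role. Filled points passed an adjusted p under 0.05. The COMBO points reach -4.12 for EXO1, and ATM is the only member at or above 1.

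Known proliferation genes moved in the same direction as most members. All 17 genes on a list of S phase and proliferation markers (among them MKI67, PCNA, E2F1 and the MCM helicase subunits) were lower in GSK and in COMBO, and 14 were lower in GDC. Their median level per library averaged 8.02 ± 0.033 log2 CPM in DMSO against 7.71 ± 0.052 under GDC, 6.58 ± 0.092 under GSK and 5.27 ± 0.075 under COMBO (SD, n = 3). The members' median level followed the same order, at 5.85 ± 0.0090, 5.64 ± 0.054, 4.93 ± 0.074 and 4.17 ± 0.082. The part of this fall of S phase genes in the values of the members was not tested.

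BRCA1 and BRCA2 fell together while their direct partners BARD1 and PALB2 held much of their level. BRCA1 (hg38, chr17:43044295-43170245, minus strand), a ubiquitin ligase subunit that promotes resection and recruits PALB2, measured 129, 107 and 116 CPM in DMSO, 100, 93.8 and 95.4 in GDC, 47.8, 42.4 and 49.2 under GSK and 18.0, 15.4 and 18.8 under COMBO (replicates A, B and C here and in what follows). No 2 arms overlapped. The log2 fold change against DMSO was -0.27 ± 0.068 in GDC (SE, adjusted p = 0.00302), -1.33 ± 0.074 for GSK (adjusted p = 2.57e-12) and -2.76 ± 0.080 for COMBO (adjusted p = 3.44e-17), a 6.76-fold lower level. BRCA2 (chr13:32315086-32400268, plus strand), which acts on resected single-stranded DNA, measured 236, 186 and 202 CPM in DMSO against 157, 154 and 179 under GDC, 58.2, 48.0 and 76.8 under GSK and 27.9, 31.1 and 31.1 under COMBO. The arms again did not overlap, and COMBO stood 6.89-fold below DMSO (log2 -2.78 ± 0.12, adjusted p = 1.48e-14).

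BARD1, the obligate RING partner of BRCA1, took another course. It measured 103, 93.8 and 99.4 CPM in DMSO against 97.6, 90.4 and 102 under GDC, 124, 131 and 122 under GSK and 78.7, 82.8 and 87.3 under COMBO. The GDC libraries overlapped those of DMSO, all GSK libraries were above them and all COMBO libraries below. BARD1 rose by 0.35 ± 0.056 on the log2 scale in GSK (adjusted p = 1.21e-05) and fell by 0.25 in COMBO (adjusted p = 3.86e-04), although with library totals as the only scaling the COMBO value was -0.042 (adjusted p = 0.490). PALB2, which bridges BRCA1 and BRCA2, fell by 0.66 in COMBO, and the helicase BRIP1 fell by 2.59, from a mean of 28.3 to 4.62 CPM. In this role 2 of 5 members were lower in GDC, 4 in GSK and all 5 in COMBO.

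**Figure D2:**
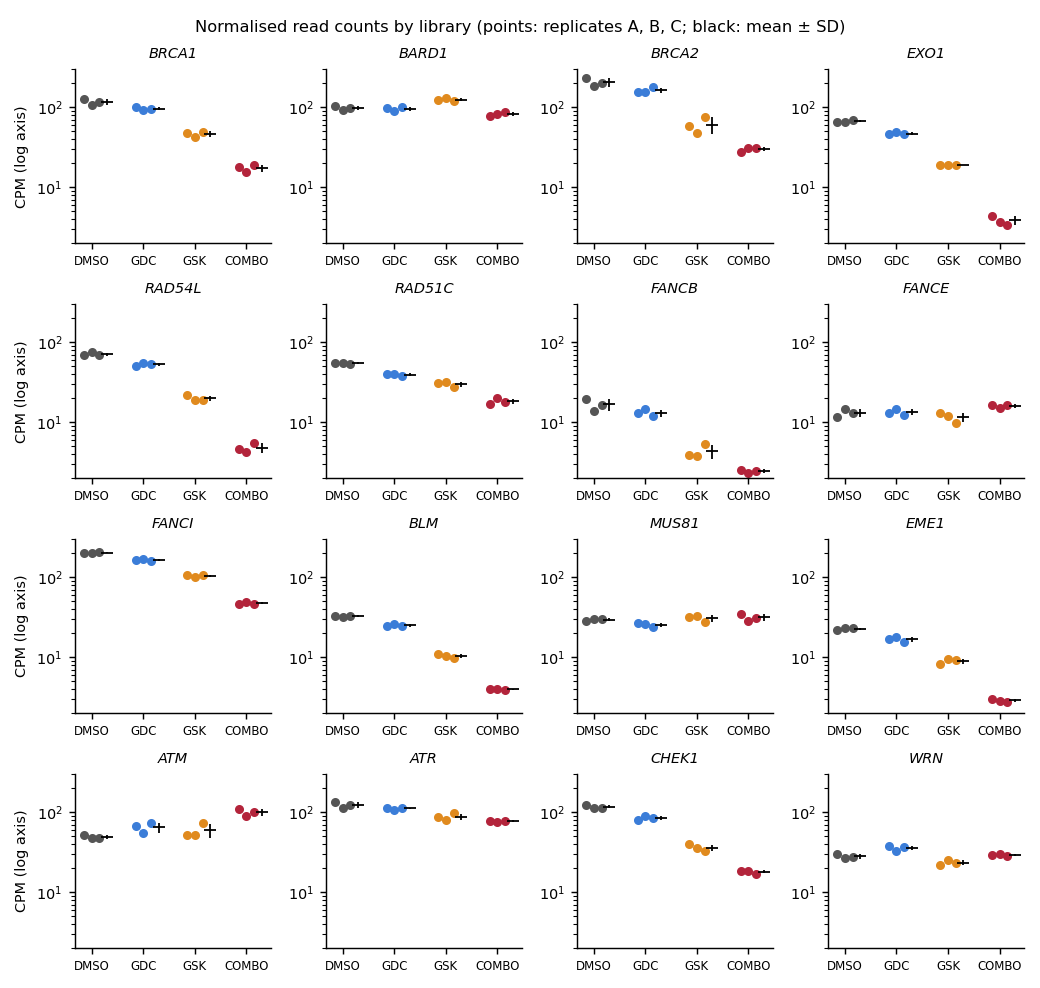
Normalised read counts (CPM, log axis) of 16 members in each of the 12 libraries, with replicates A, B and C as points and the mean with its SD in black. BRCA1, BRCA2, EXO1, RAD54L, BLM, EME1 and CHEK1 step down from DMSO to COMBO, BARD1, MUS81 and WRN stay within a narrow range, and ATM is highest in COMBO.

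Among the genes of break sensing and end resection, the subunits of the sensor complex fell less than the late nuclease, which changed most. EXO1 (chr1:241847967-241895148, plus strand), an exonuclease of long-range resection, measured 65.8, 66.6 and 69.5 CPM in DMSO against 46.4, 48.8 and 46.0 under GDC, 19.1, 18.9 and 19.2 under GSK and 4.41, 3.73 and 3.42 under COMBO. The arms were separate at each step, and the COMBO values rested on 47 to 84 reads per library. EXO1 stood 17.4-fold below DMSO in COMBO (log2 -4.12 ± 0.078, adjusted p = 1.21e-19), the lowest value of any member, after -0.52 in GDC and -1.83 in GSK.

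NBN, the MRN subunit that recruits ATM, marked the other end of this role. It measured 134, 124 and 138 CPM in DMSO against 139, 139 and 138 under GDC, 114, 106 and 112 under GSK and 111, 116 and 101 under COMBO. Both arms with GSK126 lay below DMSO without overlap, while GDC overlapped it. The log2 fold change was -0.26 ± 0.056 with GSK (adjusted p = 3.27e-04) and -0.28 ± 0.054 with COMBO (adjusted p = 9.89e-05), and with library totals neither passed (-0.10 and -0.069). Its partners fell too. MRE11A (MRE11 in current annotation), the nuclease, was 1.68-fold lower in GSK (adjusted p = 9.35e-10) and fell by 0.92 in COMBO, a 1.90-fold lower level (adjusted p = 1.02e-11), and RAD50, the ATPase that tethers the ends, fell by 0.36 in COMBO. RBBP8, which encodes the resection factor CtIP, fell by 1.41. All 5 members of the role were lower in GSK and in COMBO, but only EXO1 and RBBP8 in GDC.

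Every member that acts in strand exchange was lower in all 3 arms. RAD54L, a motor protein of strand invasion, measured 69.5, 75.1 and 68.9 CPM in DMSO against 51.3, 54.9 and 53.2 under GDC, 21.9, 19 and 18.9 under GSK and 4.59, 4.22 and 5.53 under COMBO. No arms overlapped, and the COMBO level was 15.1-fold lower than that of DMSO (log2 -3.92 ± 0.086, adjusted p = 7.65e-19). RAD51C, which acts in strand exchange, fell least of the 6. It measured 55.9, 55.9 and 54.2 CPM in DMSO against 40.6, 40.2 and 37.7 under GDC, 31.3, 31.7 and 27.7 under GSK and 17, 20.0 and 17.8 under COMBO. Its arms were separate too, with a 3.0-fold lower level in COMBO (log2 -1.59 ± 0.068, adjusted p = 1.74e-14).

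The remaining genes of this role lay between these values. In COMBO XRCC2 and XRCC3 fell by 2.97 and 1.95, RAD51AP1, which stimulates strand invasion, by 2.66, and RAD54B, a relative of RAD54L, by 1.91. In GDC the 6 genes ranged from -0.48 to -0.26 and in GSK from -1.89 to -0.87. All 6 were among the members with 4 separate arms. Part of the RAD54L locus overlaps LRRC41, which was also counted, and the use of strand in counting is not given in the sources used here, so its counts are less certain.

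Within the Fanconi anaemia core complex the subunits diverged. FANCB, which joins the ligase module, measured 19.4, 14.0 and 16.6 CPM in DMSO against 12.9, 14.5 and 11.9 under GDC, 3.85, 3.79 and 5.34 under GSK and 2.55, 2.31 and 2.48 under COMBO. The GDC libraries overlapped those of DMSO, and the other arms were separate. The log2 fold change was -1.92 ± 0.15 in GSK (adjusted p = 3.66e-10), the lowest of all members in that arm, and -2.75 ± 0.15 in COMBO (adjusted p = 6.75e-13). In GDC it was -0.32 ± 0.12 (adjusted p = 0.0333), a call that was lost without DMSO A, DMSO C or GDC C (adjusted p = 0.0700, 0.0701 and 0.10) and with library totals (adjusted p = 0.0568).

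FANCE, the subunit that contacts FANCD2, did not follow. It measured 11.7, 14.5 and 13.0 CPM in DMSO against 13.2, 14.8 and 12.5 under GDC, 13.0, 11.9 and 9.83 under GSK and 16.6, 15.0 and 16.5 under COMBO. Only the COMBO libraries stood apart, above all others. FANCE rose by 0.27 ± 0.099 in COMBO (adjusted p = 0.0163), but DESeq2 gave an adjusted p of 0.0508, no filter 0.0506, and leaving out DMSO A, DMSO C, COMBO A or COMBO C gave 0.0699, 0.0680, 0.0600 and 0.0773. In GSK it was at -0.20 (adjusted p = 0.110), which passed with no filter and without DMSO A or GSK A (adjusted p = 0.0216, 0.0276 and 0.0261).

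The other core subunits fell to different depths in COMBO. FANCA fell by 2.43, FANCG by 1.93, FANCC by 1.65, and the translocase FANCM, which anchors the complex to DNA, by 1.91. FANCL, the catalytic ligase subunit, fell by 0.54 and the adaptor FANCF by 0.32, which with library totals was -0.11 (adjusted p = 0.0808). In the role 4 of 8 were lower in GDC, 7 in GSK and 7 in COMBO. FANCA was at -0.21 in GDC (adjusted p = 0.0543), which passed under 13 of the 19 alternatives, among them the fits without DMSO A or GDC A (adjusted p = 0.0260 and 0.0194). FANCA and FANCL overlap other counted genes, ZNF276 and VRK2.

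Both subunits of the ID2 clamp, the substrate of the core complex, were lower with GSK126. FANCD2 measured 110, 106 and 112 CPM in DMSO against 107, 104 and 98.1 under GDC, 54.6, 60.3 and 58.6 under GSK and 35.2, 31.5 and 32.4 under COMBO. Its GDC libraries overlapped those of DMSO (log2 -0.088, adjusted p = 0.198, and 0.0446 with no filter on low counts), and the GSK126 arms were separate from them and from each other. FANCI measured 201, 202 and 209 CPM in DMSO against 167, 169 and 162 under GDC, 107, 102 and 107 under GSK and 47.1, 49.4 and 46.1 under COMBO. All 4 arms of FANCI were separate, and its log2 fold change in COMBO, -2.10 ± 0.048 (adjusted p = 1.30e-18), lay beside -1.73 ± 0.057 for FANCD2 (adjusted p = 3.05e-16). FANCI overlaps POLG, and FANCD2 and BRCA1 each have a named pseudogene, which the counting could affect.

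Of the helicases and junction nucleases, BLM and EME1 fell steeply in COMBO, while MUS81, SLX4 and WRN ended near their DMSO level. BLM, the RecQ helicase that dissolves joined recombination intermediates, measured 33.0, 31.7 and 33.2 CPM in DMSO against 24.6, 26.2 and 24.6 under GDC, 11.1, 10.4 and 9.83 under GSK and 4.01, 3.99 and 3.86 under COMBO. The arms did not overlap, and COMBO was 8.23-fold below DMSO (log2 -3.04 ± 0.084, adjusted p = 1.85e-17). EME1, the regulatory partner of the MUS81 endonuclease, fell by 2.98 ± 0.10 (adjusted p = 6.67e-16), from a mean of 22.6 to 2.88 CPM. EME1 overlaps the counted gene LRRC59 on the other strand, so its counts are less certain.

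MUS81, the catalytic subunit, measured 28.6, 30.2 and 30.3 CPM in DMSO against 26.8, 25.8 and 23.8 under GDC, 32.2, 33.0 and 27.5 under GSK and 34.7, 28.3 and 31.4 under COMBO. Its GDC libraries were the lowest, and those of GSK and COMBO overlapped DMSO. The log2 fold change in COMBO was 0.069 ± 0.078 (adjusted p = 0.416), and with library totals 0.28 (adjusted p = 0.00395). In GDC it was -0.23 ± 0.082 (adjusted p = 0.0287), a call that was lost without DMSO C or GDC C (adjusted p = 0.0590 and 0.0724) and with library totals (adjusted p = 0.0706). In GSK it was at 0.047 (adjusted p = 0.615), and passed with library totals (0.20, adjusted p = 0.0405).

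The scaffold SLX4 was at -0.16 ± 0.066 in COMBO (adjusted p = 0.0294). That call did not hold without DMSO C or COMBO B (adjusted p = 0.115 and 0.128) or with a mean of at least 1 CPM as the filter (adjusted p = 0.0747), and library totals turned its sign (0.046). In GSK it was at 0.027 (adjusted p = 0.734), and passed with library totals (0.18, adjusted p = 0.0255). In GDC it was at -0.18 (adjusted p = 0.0395), lost without DMSO C or GDC B (adjusted p = 0.0763 and 0.110) and with library totals (adjusted p = 0.101). WRN, the helicase mutated in Werner syndrome, averaged 28.2 CPM in DMSO against 35.9 under GDC, 23.5 under GSK and 29.1 under COMBO. It rose by 0.36 ± 0.069 in GDC (adjusted p = 3.71e-04) and fell by 0.24 in GSK (adjusted p = 0.00797; with library totals the adjusted p was 0.320), and was at 0.066 in COMBO (adjusted p = 0.382), where library totals gave 0.27 (adjusted p = 0.00131). RECQL4 fell by 1.79 in COMBO, and its GDC call (adjusted p = 0.0123) was lost without DMSO C (adjusted p = 0.0513).

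ATM and ATR, the apical kinases, moved in opposite directions. ATM (chr11:108223044-108369102, plus strand), which responds to broken ends, measured 52.6, 47.8 and 47.2 CPM in DMSO against 66.6, 55.1 and 73.2 under GDC, 52.5, 52.6 and 73.6 under GSK and 110, 90.1 and 101 under COMBO. Every COMBO library was above all others, GDC lay above DMSO, and GSK A and B lay at the level of DMSO A. The log2 fold change in COMBO was 1.04 ± 0.11 (adjusted p = 2.17e-08), a 2.05-fold higher level. In GDC it was 0.41 ± 0.11 (adjusted p = 0.00638), but DESeq2 (adjusted p = 0.0624) and the fits without DMSO C or GDC C (adjusted p = 0.0534 and 0.0874) lost the call.

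In GSK, ATM was at 0.29 ± 0.12 (adjusted p = 0.0277). That value rested on GSK C, without which it was 0.11 (adjusted p = 0.341), and the call was lost under 8 of the 19 alternatives for this comparison, which included leaving out DMSO A, DMSO B, DMSO C, GDC A or COMBO C (adjusted p = 0.0554, 0.0889, 0.124, 0.0628 and 0.0554).

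ATR, which responds to stalled replication forks, measured 136, 113 and 123 CPM in DMSO against 112, 108 and 114 under GDC, 87.4, 81.3 and 96.8 under GSK and 78.0, 75.0 and 78.6 under COMBO. GDC overlapped DMSO, and the other arms were lower and separate. ATR fell by 0.48 in GSK (adjusted p = 1.75e-06) and by 0.68 in COMBO (adjusted p = 6.39e-09), and was at -0.15 ± 0.064 in GDC (adjusted p = 0.0778), which passed under 12 of the 19 alternatives, such as leaving out DMSO B (-0.24, adjusted p = 0.00585) or GDC C (-0.20, adjusted p = 0.0452). Its partner ATRIP was close to it at -0.86 in COMBO, and overlaps TREX1. The GDC call of ATRIP (-0.23, adjusted p = 0.0226) was lost without GDC C (adjusted p = 0.0592) and with library totals (adjusted p = 0.0544).

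CHEK1, the effector kinase of ATR, fell furthest among the checkpoint genes. It measured 122, 114 and 113 CPM in DMSO against 80.1, 90.1 and 84.1 under GDC, 39.6, 35.8 and 33.2 under GSK and 18.2, 18.6 and 17.1 under COMBO. All arms were separate, and COMBO was 6.43-fold below DMSO (log2 -2.69 ± 0.067, adjusted p = 4.33e-18). CHEK2, the effector of ATM, fell by 2.41, and TOPBP1, the activator of ATR, by 1.61. CHEK2 has 7 named pseudogenes in the annotation, so its counts are uncertain where the counting could split reads between copies.

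MSH6 and POLQ complete the list. MSH6, which recognises base mismatches, measured 129, 125 and 126 CPM in DMSO against 116, 115 and 111 under GDC, 57.8, 51.3 and 58.1 under GSK and 39.3, 40.0 and 39.0 under COMBO. POLQ, the polymerase of an alternative end joining route that cells without homologous recombination rely on, measured 104, 95.7 and 97.1 CPM in DMSO against 80.5, 70.8 and 74.3 under GDC, 40.3, 35.1 and 40.2 under GSK and 17.5, 16.3 and 20.4 under COMBO. For both genes the 4 arms were separate. The GDC call of MSH6 (-0.15, adjusted p = 0.0218) was lost with library totals (adjusted p = 0.0695). In COMBO the log2 fold change was -1.68 ± 0.052 for MSH6 (adjusted p = 1.15e-16) and -2.46 ± 0.076 for POLQ (adjusted p = 9.19e-17). The MSH6 locus overlaps FBXO11.

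The order of levels among the members changed with these shifts. Per kilobase of the canonical transcript, FANCI was the highest member in DMSO at 43.1 ± 0.853 CPM per kb (SD, n = 3), followed by RAD51AP1 at 38.4 ± 2.53 and TOPBP1 at 34.2 ± 0.638. In COMBO, NBN was highest at 23.6 ± 1.61, followed by BARD1 at 15.1 ± 0.790, RAD50 at 13.7 ± 0.582, FANCF at 13.6 ± 0.650 and MUS81 at 13.3 ± 1.34, of which the last 3 differed by less than their SD. BRIP1 had the lowest mean in both arms, at 3.46 ± 0.249 and 0.564 ± 0.0704, though in DMSO WRN (3.72 ± 0.247) and ATM (3.81 ± 0.229) were close above it. Across the 40 members, the DMSO level per kb and the log2 fold change in COMBO had a Pearson r of -0.32 and a Spearman rho of -0.23, a description across genes that share their libraries.

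To ask what each agent added to the other, COMBO was compared with the single agents. Adding GSK126 to GDC-0941 lowered 36 members, against 38.0% of all genes, and raised ATM, FANCE and MUS81, against 37.9%. The members' median log2 fold change of COMBO against GDC was -1.51. FANCE rose by 0.24 (adjusted p = 0.0451), and 6 of the 19 alternatives lost this call: DESeq2 (adjusted p = 0.0585), the replicate block over all 12 libraries (0.0501), and the fits without GDC A, GDC C, COMBO A or COMBO C (0.0691, 0.109, 0.0716 and 0.140). With the replicate block in a fit of these 2 arms only, its adjusted p was 0.0199, and no member's call changed. That fit gave far smaller adjusted p-values at the same fold change, such as 7.11e-56 against 5.89e-16 for BRCA1 (edgeR, log2 -2.48). It is therefore no measure of how stable the calls are. With library totals the calls of BARD1, FANCF and WRN were lost (adjusted p = 0.452, 0.171 and 0.117), and SLX4 passed as higher (0.19, adjusted p = 0.0188). Adding GDC-0941 to GSK126 lowered 30 members, against 26.9% of all genes, and raised ATM, FANCE, FANCF, RAD50 and WRN, against 19%. The median of COMBO against GSK was -0.64, compared with -0.25 for GDC-0941 given alone. The largest falls of COMBO against GSK were those of EXO1 (log2 -2.30 ± 0.097, adjusted p = 4.16e-13), RAD54L (-2.08 ± 0.11, adjusted p = 5.45e-12) and EME1 (-1.63 ± 0.13, adjusted p = 2.72e-09). ATM rose by 0.75 ± 0.11 over GSK (adjusted p = 1.49e-05). FANCF overlapped between these arms, and its call was lost without GSK C or COMBO B (adjusted p = 0.147 and 0.101). Smaller falls in this comparison were less stable: the calls of SLX4 (-0.19), MRE11A (-0.18) and ATR (-0.20) were lost under 16, 14 and 9 of the 19 alternatives, including the fits without GSK A, GSK C or COMBO A.

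Whether GDC-0941 acted differently in the presence of GSK126 was tested by the interaction, the log2 change of COMBO minus those of GDC and GSK, which is 0 where the single-agent changes add up. It was called below 0 in 21 members, against 16.5% of all genes, and called above 0 in 2, against 4.86%. By sign alone, called or not, 33 of the 40 members and 8423 of the 14189 genes tested lay below 0. Without the filter on low counts the calls split into 20 below and 5 above. The members' median was -0.38 and that of all genes -0.063. EXO1 had the lowest value, -1.78 ± 0.11 (adjusted p = 1.75e-09): the sum of the single-agent changes would leave 13.3 CPM, and COMBO measured 3.85 ± 0.507 (SD, n = 3). RAD54L followed at -1.66 ± 0.12 (adjusted p = 1.33e-08), with 14.8 CPM from the sum and 4.78 ± 0.680 measured. BRCA1 was at -1.15 ± 0.11 (adjusted p = 3.62e-07), with 38.6 and 17.4 ± 1.77 CPM.

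BRIP1, EME1, FANCA and BLM were also past -1 on this scale, at -1.26, -1.20, -1.04 and -1.01. BARD1 was at -0.57 ± 0.080 (adjusted p = 3.23e-05), having risen in GSK and not in COMBO. TOPBP1 was at -0.26 (adjusted p = 0.0264), a call lost under 15 of 18 alternatives, among them every fit that left out a library other than COMBO B, with the smallest value, -0.15, without COMBO A. On the other side FANCE was at 0.44 ± 0.15 (adjusted p = 0.0466) and RAD50 at 0.21 ± 0.073 (adjusted p = 0.0422). The FANCE value did not hold without DMSO B, DMSO C, GDC A, GDC C, GSK C or COMBO C (adjusted p = 0.0634, 0.0537, 0.0516, 0.0701, 0.130 and 0.0699). That of RAD50 was lost without GSK C or COMBO B (adjusted p = 0.0653 and 0.0660) and with the replicate block (adjusted p = 0.0528). For ATM the interaction was 0.34 ± 0.16 (adjusted p = 0.138). It passed without GDC C, GSK C or COMBO B (adjusted p = 0.0386, 0.00600 and 0.0468) and with no filter (adjusted p = 7.73e-05). MUS81, at 0.26 (adjusted p = 0.129), passed with no filter and without GSK B or COMBO B (adjusted p = 0.0194, 0.0474 and 0.0313), and FANCF, at 0.25 (adjusted p = 0.0524), passed under 13 of 18.

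**Figure D3:**
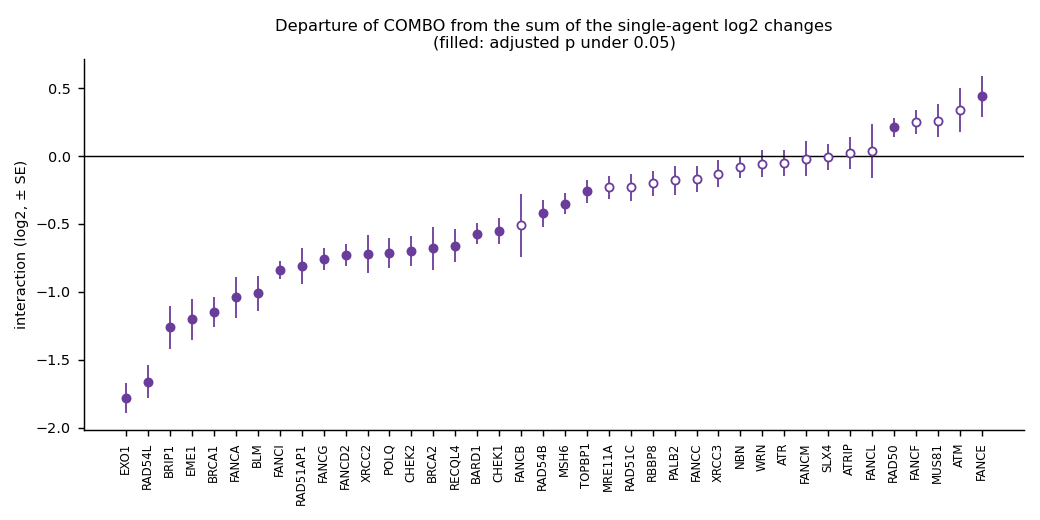
Interaction of the inhibitors for each of the 40 members (COMBO minus GDC minus GSK plus DMSO, log2, with standard errors), in ascending order. Filled points passed an adjusted p under 0.05: 21 lie below 0, from EXO1 at -1.78, and 2 lie above it, RAD50 and FANCE.

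Several of these proteins work as obligate pairs, so the ratio of partner transcripts was taken within each library, where scaling between libraries cancels. The ratios are of CPM and not per length, so that only their change is described. The log2 ratio of BRCA1 to BARD1 moved from 0.24 ± 0.071 in DMSO to -1.43 ± 0.16 in GSK and -2.25 ± 0.15 in COMBO (SD, n = 3), a 5.63-fold lower ratio in COMBO. That of BRCA2 to PALB2 moved from 3.04 ± 0.15 to 1.71 ± 0.35 and 0.91 ± 0.16. MUS81 to EME1 went the other way, from 0.39 ± 0.0095 to 1.78 ± 0.20 and 3.39 ± 0.11, an 8.02-fold higher ratio that rests on the counts of EME1, with the overlap given above.

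Other pairs changed together more closely. In COMBO the log2 ratio of FANCD2 to FANCI was 0.37 above DMSO, that of ATR to ATRIP 0.18 above, that of RAD51C to XRCC3 0.34 above, and that of MRE11A to RAD50 0.57 below. That of RAD50 to NBN was 0.084 lower with overlapping libraries. Of the 27 comparisons (9 pairs in 3 arms, of which 8 pairs are shown), 20 had no overlap with DMSO. The share among other pairs of genes was not computed, so this count cannot be read as particular to these pairs. With 3 libraries against 3 the exact permutation test (two-sided) cannot go below p = 0.1, and the smallest adjusted p was 0.14, so no ratio could pass.

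**Figure D4:**
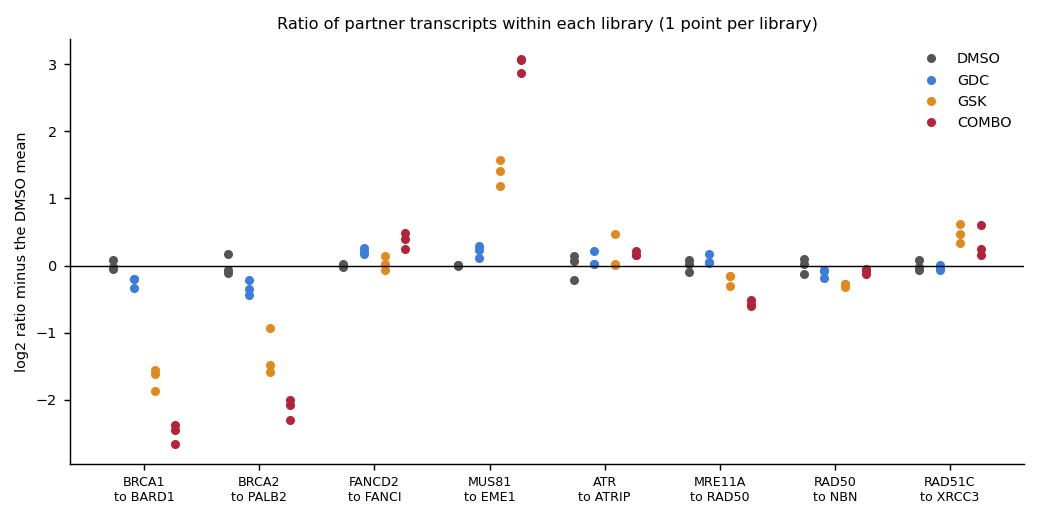
Log2 ratio of partner transcripts in each of the 12 libraries, minus the mean of the DMSO libraries, for 8 pairs. BRCA1 to BARD1 and BRCA2 to PALB2 fall to about -2 or below in COMBO, MUS81 to EME1 rises to about 3, and the other pairs stay within 1 of DMSO.

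The rest of the repair network was examined with lists of other genes of the same and of neighbouring pathways. The counts are to be read against all genes tested, of which 39.2% were lower and 43.3% higher in COMBO. Of 26 tested other homologous recombination genes, 16 were lower and 6 higher in COMBO, with a median log2 fold change of -0.61. DNA2, a resection nuclease, fell by 2.92 ± 0.096 (adjusted p = 2.65e-16), and FAM175A, which encodes the BRCA1-A subunit Abraxas, rose by 1.59 ± 0.11 (adjusted p = 3.76e-11). Of 10 other Fanconi pathway genes 5 were lower and 2 higher (median -0.49), led by the E2 enzyme UBE2T at -2.58 and ended by WDR48, a cofactor of the deubiquitinase USP1, at 0.51.

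Among 15 other checkpoint and damage signalling genes, 13 were lower and 0 higher in COMBO by edgeR (median -1.36). CLSPN, the adaptor through which ATR activates CHEK1, fell from 116 ± 4.52 CPM in DMSO to 4.19 ± 0.313 in COMBO (log2 -4.79 ± 0.090, adjusted p = 1.21e-19), below any member.

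Repair routes outside homologous recombination differed. The called counts of the end joining list lay near the shares of all genes, while most genes of the base excision list were lower. Of 13 non-homologous end joining genes 4 were lower and 6 higher in COMBO (median -0.026). RIF1, which restrains resection, fell by 1.22 ± 0.082 (adjusted p = 2.39e-11), and APLF rose from a mean of 0.211 to 1.21 CPM (adjusted p = 1.34e-05), with a DMSO level near the detection floor. In the mismatch list 3 of 6 were lower and 1 higher (median -0.33), with PMS2, a subunit of the MutL complex, at 0.94. In nucleotide excision repair 13 of 20 were lower and 6 higher (median -0.28), with GTF2H2 at -1.50 and UVSSA (KIAA1530 in the files) at 0.95. In base excision repair 16 of 19 were lower and 2 higher (median -0.69), with the glycosylases NEIL3 at -2.71 and NEIL1 at 2.41.

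The S phase and proliferation markers had the lowest median of the lists shown, -2.62, between RRM2 at -4.30 and TOP2A at -1.53. The members' median in COMBO, -1.76, thus lay between that list and every other list of repair genes. These medians are descriptions, with no test between lists. The members and the lists were chosen with earlier results of these data known, so their order carries no support of its own.

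**Figure D5:**
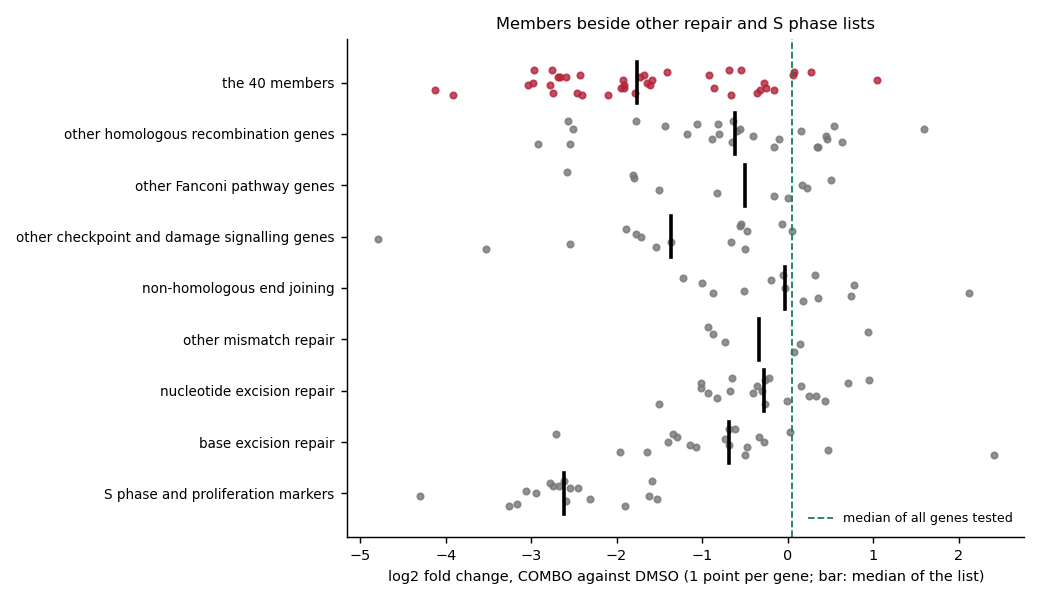
Log2 fold change in COMBO against DMSO for the 40 members (red) and for 8 other lists (grey), with 1 point per tested gene and a black bar at each list's median. The dashed line is the median of all genes tested, 0.054. The members' bar at -1.76 lies left of every list but the S phase and proliferation markers at -2.62. Members and lists were chosen with earlier results of these data known.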

How the data were processed

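RNA-seq was performed on C4.2B cells in 4 arms of 3 replicates, grouped by the treatment given in the sample labels. The authors aligned the reads with STAR to hg38 and counted them per gene with HTSeq (submitters' processing notes, which also name DESeq2); their versions, the gene annotation and the strand setting are not given in the sources used here, nor is which library was sequenced at which facility. The deposited unit was raw counts per gene for 23228 genes, and the 5 HTSeq summary lines entered neither totals nor tests. A deposited normalised table was not used, because some of its gene names had been turned into dates. No column was left unmapped (0).

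Genes were filtered with filterByExpr (14189 kept) and all 12 libraries were fitted in 1 model with edgeR 4.0.16 (R 4.3.3, TMM scaling, quasi-likelihood test, Benjamini-Hochberg adjustment over all genes tested; common biological coefficient of variation 0.0499). The standard error is the size of the log2 fold change divided by the square root of the test's F. Between 8785218 and 44437751 counts fell in genes per library, where 3 counts equal 0.341 to 0.0675 CPM; this floor covers counting error only. Gene positions and canonical transcript lengths are from GENCODE 44 on hg38. Partner ratios used an exact permutation test (scipy 1.17.1).

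The members, roles and gene lists were chosen with earlier results of these data known. Values in every library are printed for BRCA1, BRCA2, ATM, ATR and CHEK1, for the members with the highest and lowest COMBO change in each role, and for those with the highest and lowest interaction; from each other list the called genes at either end are named. Promoters were due for the 3 lowest members and ATM; that of EXO1 is not printed. Some genes, and 1 gene list and 1 partner pair that need them, are not reported here. The fits were tested on simulated data. The letters A to C were checked as a pairing by correlating deviations from the arm means: all 3 same-letter pairs of GDC and COMBO correlated at over 0.1 (0.146 to 0.404), but in none of the other 5 pairs of arms did all 3, and the labels tie the letters to no shared batch. Alternatives were DESeq2 1.42.0 as the test, its size factors in edgeR, library totals, other filters, a replicate block, only the compared arms, and each library left out.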

Additional observations from a re-analysis of the deposited data

Results flagged for a closer look

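In 23 members the effect of GDC-0941 in the presence of GSK126 differed from its effect without it, by the interaction term of edgeR's quasi-likelihood fit (adjusted p under 0.05 over all genes tested). The difference was below 0 in 21 of them. On the log2 scale it was -1.78 for EXO1, -1.66 for RAD54L, -1.26 for BRIP1, -1.20 for EME1, -1.15 for BRCA1, -1.04 for FANCA and -1.01 for BLM. It was -0.84 for FANCI, -0.81 for RAD51AP1, -0.76 for FANCG, -0.73 for FANCD2, -0.72 for XRCC2, -0.71 for POLQ, -0.70 for CHEK2, -0.68 for BRCA2 and -0.66 for RECQL4. The smaller values were -0.57 for BARD1, -0.55 for CHEK1, -0.42 for RAD54B, -0.35 for MSH6 and -0.26 for TOPBP1. FANCE (0.44) and RAD50 (0.21) stood on the other side. Of these 23 calls, those of TOPBP1, FANCE, RAD50 and RAD54B were lost under at least 1 alternative, RAD54B without GSK A (-0.30, adjusted p = 0.0665).

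Reads outside genes, which no comparison of the members used, were above the control arm in every treated arm. As a share of uniquely mapped reads they averaged 17% ± 0.289 in GDC, 20.6% ± 0.321 in GSK and 23.9% ± 1.21 in COMBO, against 15.5% ± 0.513 in DMSO (SD, n = 3). The part of this shift in the members' values was not tested.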

How the results depend on the processing

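Of 4520 values of members under the alternatives, 4349 kept their side of the threshold, 114 lost a call and 56 gained one. In 1 more, the call was lost with a change of sign: SLX4 in COMBO was at -0.16 and became 0.046 (adjusted p = 0.536) with library totals. Among values that were not called, 102 changed sign. Library totals moved the median of all genes tested to 0.21 in GSK and 0.26 in COMBO. The median log2 fold change over members then became -0.88 in GSK and -1.56 in COMBO, and that of COMBO against GDC -1.34. Without the filter it became -0.32 in GDC, -1.11 in GSK and -0.29 for the interaction, and with a mean of at least 1 CPM -1.44 in COMBO against GDC and -0.32 for the interaction. Leaving out 1 library at a time gave medians of -1.82 to -1.70 in COMBO and -0.41 to -0.28 for the interaction, and 23 to 30 called members in GDC, 36 to 38 in GSK, 36 to 38 in COMBO and 21 to 25 for the interaction. Counting only changes of at least 1 on the log2 scale left 0 members in GDC, 20 in GSK, 13 in COMBO against GSK and 7 for the interaction. All of these were falls. Among the 14189 genes tested, called falls of this size numbered 21, 832, 265 and 158 in the same order. With the replicate block, called members numbered 28, 37 and 38 in GDC, GSK and COMBO, 38 and 35 in COMBO against GDC and GSK, and 22 for the interaction. The block lost the calls of FANCE in COMBO against GDC and of RAD50 in the interaction, and no other. A block in a fit of GDC and COMBO alone, added after seeing the data, left 39 members called. Its p-values were far smaller than those of the main fit, as given above, so this count does not measure stability. Precision is limited by 3 plates per arm, and for EXO1 by 47 counts in the shallowest COMBO library.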
